A study of Triticum aestivum with 4 samples.

Results

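The measurement described here is the difference, between progeny of heat-primed and of unprimed wheat, in how the flag leaf transcriptome changed with heat after anthesis. For each probe set of the Affymetrix wheat array, the log2 change with heat in progeny of unprimed parents (NH minus NC) was subtracted from the log2 change with heat in progeny of primed parents (PH minus PC). All 4 arrays of the series enter each value, and 33561 of 61115 probe sets (54.9%) had an intensity above a floor of 12.3 on at least 1 array. A positive difference means that the transcript fell less, or rose more, with heat in the progeny of primed parents; a difference of 1 on the log2 scale is a 2-fold difference between the heat changes. There was 1 array per group, so no value has a replicate error, no test could be made, and a 2-fold difference is a description of these 4 arrays.

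PH plants were offspring of primed parents and were heated to 34 °C in daytime and 30 °C at night; this lasted 6 days and began on day 10 after anthesis. PC plants, also offspring of primed parents, spent those days at 26 °C in daytime with nights of 22 °C. NH and NC plants were offspring of unprimed parents and had the heated and the cooler regime of those same days. The primed parents had been warmed to 32 °C in daytime (nights 28 °C) for 2 days at the 7-leaf and again at the 9-leaf stage, and to 34 °C (nights 30 °C) for 7 days beginning on day 10 after their anthesis. All plants were pot-grown winter wheat (*Triticum aestivum*), cultivar Yangmai 16, and groups were moved to separate growth chambers, so chamber and treatment cannot be told apart. The number of plants or leaves behind each RNA is not stated in the labels.

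The flag leaf is the last leaf that a wheat stem forms and a main source of sugars for the growing grain. Its chloroplasts capture light through the photosystems and the cytochrome b6/f complex and fix carbon in the Calvin cycle, and prolonged heat is known to lower photosynthesis and to hasten ageing of the leaf. Priming is an earlier stress after which a plant, or in some cases its offspring, responds differently to a later one. Here the treatment of the parents after anthesis was as hot as the heat given to the progeny. The design asks whether a mark of the parents' treatment shows in the heat response of the progeny.

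The labelled tissue was checked against leaf, grain and anther markers. All 6 leaf mesophyll genes, namely rbcl, PsbO, PsbP, PRK, petC and CAT1, were above the floor on all 4 arrays, with a summed intensity of 37086 on PH, 50424 on PC, 28676 on NH and 48567 on NC. Of the anther genes, raftin1a was below the floor on all 4 arrays and raftin1b lay between 13.4 and 16.8. Grain markers are given beside the storage protein genes.

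Several carbon fixation transcripts stood higher after heat in progeny of primed parents than in progeny of unprimed parents, from similar levels without heat. In all 3 measured genes of photosystem II and the cytochrome b6/f complex, and in 4 of 4 of Rubisco, the Calvin cycle and thioredoxin m, the difference was above 0, with list medians of 0.58 and 1.08. Of the Rubisco, Calvin cycle and thioredoxin genes, 2 of 4 passed 2-fold upward and 0 downward, and of the photosystem II and cytochrome genes 0 passed. Over all 76 measured genes with a functional name, 5 (6.58%) passed 2-fold upward and 4 (5.26%) downward, and the median was -0.06. The measured list members are among these 76. Over all 33561 measured probe sets the shares were 2.28% upward and 2.27% downward. The values come from bulk leaf RNA, in which fewer cells of a type and less RNA per cell cannot be told apart.

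FBP is a fructose bisphosphatase, a type of enzyme with forms in the Calvin cycle and in sugar synthesis. It stood at 316 on PH and 1557 on PC, against 112 on NH and 1692 on NC. It fell 4.93-fold with heat in the P background and 15.1-fold in the N background, a difference of 1.62. The unheated arrays lay close together, and the gap between backgrounds was on the heated arrays. PRK, phosphoribulokinase, which regenerates the CO2 acceptor of the Calvin cycle, had 3493 on PH and 6877 on PC, against 1275 on NH and 5887 on NC. Its heat change was 1.97-fold downward in P and 4.62-fold in N, a difference of 1.23. PRK was thus brighter on both P arrays, but by 1.45 on the log2 scale with heat and by 0.22 without.

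Trx-M, the chloroplast thioredoxin m, which passes reducing power to target enzymes, had 1300.1 on PH and 3899 on PC, against 666 on NH and 3791 on NC, and a difference of 0.92. petC, the Rieske iron-sulfur protein of the cytochrome b6/f complex, had 4623 on PH and 8082 on PC, against 2339 on NH and 7853 on NC, and a difference of 0.94. Both therefore lay just under the 2-fold line; with quantile normalization Trx-M had 1.02. For each, NH was the lowest of the 4 arrays, and PC and NC differed by 0.04 on the log2 scale.

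PsbP and PsbO, which belong to the water-splitting complex of photosystem II, showed smaller differences of the same sign. PsbP had 4330 on PH and 5727 on PC, against 2832 on NH and 5590 on NC, with a difference of 0.58, and its other probe set had 0.55. PsbO had 4793 on PH and 6165 on PC, against 3674 on NH and 5853 on NC, with a difference of 0.31. The brightest probe set of rbcl, the large subunit of Rubisco, lay at the top of the measured scale, with 16320 on PH and 16875 on PC, against 15575 on NH and 16201 on NC. Its difference of 0.0086 turned negative with median scaling, and 8 of its 10 other probe sets had a difference above 0, within a range from -0.25 to 0.84 over all of them.

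**Figure D1:**
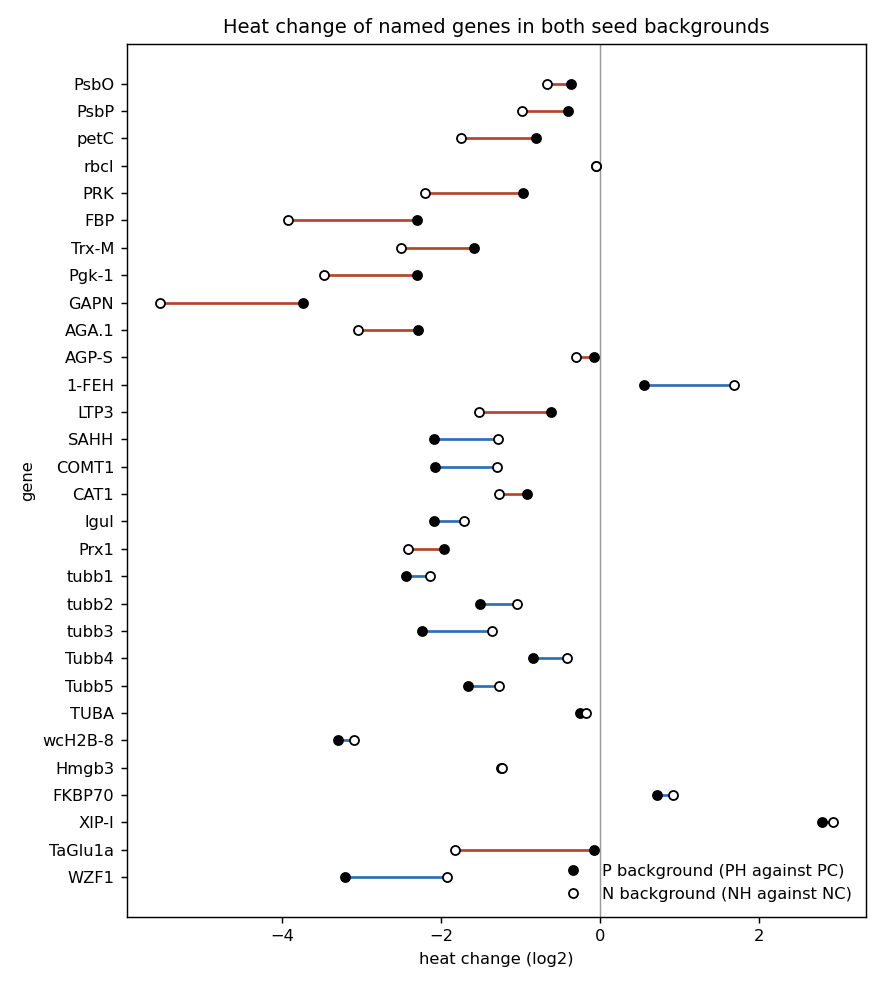
The plot sets the heat change of 30 named genes, each from its brightest probe set (log2, horizontal axis), in the P background (filled circles, PH against PC) beside that in the N background (open circles, NH against NC), 1 array per group and no error bars. Red links mark genes whose value is higher in P and blue links those lower in P; FBP, with 1.62, and GAPN, with 1.79, have long red links, whereas those of Hmgb3 and TUBA are almost of no length.

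Both measured genes of triose phosphate metabolism passed 2-fold upward, with a list median of 1.48. They are 2 of the 5 (6.58%) that did so among all 76 measured genes with a functional name. PFK, the remaining list member, was below the floor on all 4 arrays. GAPN, a glyceraldehyde-3-phosphate dehydrogenase, had 119.8 on PH and 1598 on PC, against 36.6 on NH and 1690.2 on NC. It fell 13.3-fold in P and 46.2-fold in N, so in both backgrounds most of the signal was lost. Pgk-1, phosphoglycerate kinase, had 627 on PH and 3085 on PC, against 292 on NH and 3247 on NC, with falls of 4.92-fold and 11.1-fold and a difference of 1.17. As with FBP, the unheated arrays differed by at most 0.12 on the log2 scale for these genes.

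Genes of starch and fructan metabolism did not share 1 direction. Of 4 measured genes, 2 lay above and 2 below 0, with 0 past 2-fold upward and 1 downward, and GBSS-I, a starch synthase, was below the floor on all arrays. Over all 76 measured genes with a functional name, 4 (5.26%) passed 2-fold downward. AGA.1, a subunit of ADP-glucose pyrophosphorylase, the enzyme that supplies the starch precursor, had 230.4 on PH and 1128 on PC, against 116.9 on NH and 966 on NC, a difference of 0.76. 1-FEH, a fructan exohydrolase, which releases fructose from stored fructan, had 518 on PH and 353 on PC, against 689 on NH and 214 on NC. It rose 3.22-fold in N and had a 1.47-fold higher value with heat in P, a difference of -1.13. NC was its lowest array and NH its highest. The unheated pair differed more (PC minus NC, 0.72 on the log2 scale) than the heated pair (PH minus NH, -0.41). AGP-S and 6-FEH had 0.22 and -0.24, the latter at intensities of at most 21.8. The list median of -0.01 was 0.02 with quantile normalization. LTP3, a lipid transfer protein, had 1229 on PH and 1888 on PC, against 760.3 on NH and 2195 on NC, with a difference of 0.91; it reached the 2-fold line with quantile normalization, and its other probe set had 0.33.

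**Figure D2:**
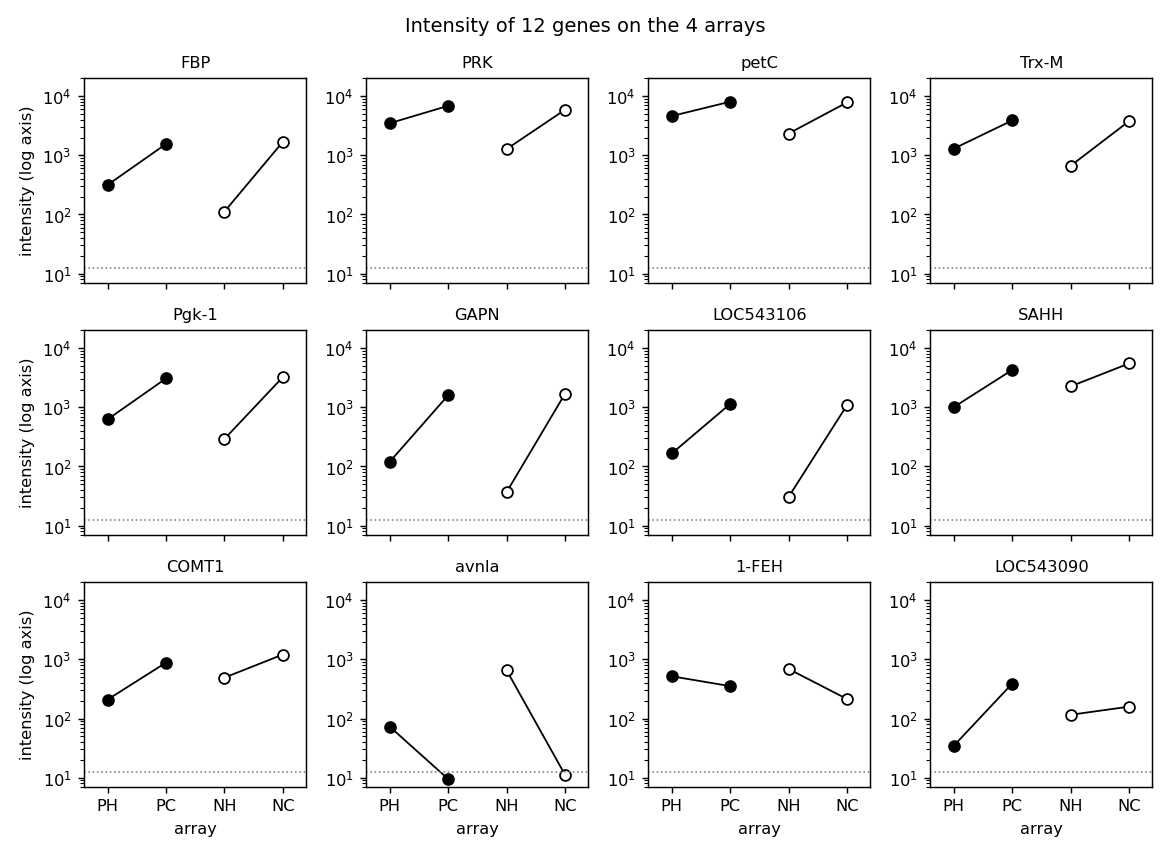
Each panel gives the deposited intensity of 1 gene (vertical log axis) on PH and PC (filled circles) and on NH and NC (open circles); each point is 1 array, lines join the arrays of a seed background and the dotted line is the floor of 12.3. In FBP, PRK, petC, Trx-M, Pgk-1, GAPN and LOC543106 the NH point lies below the PH point while the unheated points lie close together. In SAHH, COMT1, avnla, 1-FEH and LOC543090 the PH point lies below the NH point, and in 1-FEH the unheated points lie further apart than the heated ones.

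Genes of methyl transfer and adenine salvage tended the other way. In 4 of 5 genes of this list the difference was below 0, the median was -0.49, and 0 passed 2-fold. Over all 76 measured genes with a functional name, 4 (5.26%) passed 2-fold downward and the median was -0.06. SAHH, S-adenosylhomocysteine hydrolase, which clears the by-product of methyl transfer, had 1012 on PH and 4300.1 on PC, against 2267 on NH and 5532 on NC, and a difference of -0.80. COMT1, caffeic acid O-methyltransferase of lignin synthesis, had 209 on PH and 881 on PC, against 491 on NH and 1208 on NC, and a difference of -0.78. PH was the lowest array for both, and the other SAHH probe set had -0.92. PIMT, which repairs damaged aspartyl residues of proteins, had -0.49. Its intensity was 128 on PH and 83.7 on PC, against 114 on NH and 53.0 on NC. It rose with heat in both backgrounds, and its difference came from the unheated pair, since PH lay above NH. APT1, the adenine phosphoribosyltransferase of adenine salvage, had -0.22. PEAMT1, an enzyme of choline synthesis, fell at least 37.0-fold in P and at least 42.8-fold in N; both heated arrays were below the floor, so its 0.21 reflects the unheated arrays alone. The representing probe sets of SAHH, COMT1 and PEAMT1 are of types that can match several transcripts; the 2 genes left without these types had a median of -0.35.

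All 7 tubulin and profilin genes had a difference below 0, from -0.88 to -0.08, with a median of -0.38 and 0 past 2-fold. They lay below 0 with median scaling and with quantile normalization as well. The median over all 612 measured genes with a symbol was also below 0, at -0.07, and 28 of them (4.58%) passed 2-fold downward. The 27 hybridization controls ranged from -0.59 to -0.10, with a median of -0.25, so a sign below 0 was not particular to this list. tubb3, a beta-tubulin of the microtubules, had 164 on PH and 774 on PC, against 309 on NH and 793 on NC. The PC and NC values of tubb3 differed by 0.03 on the log2 scale, and PH was the lowest array. tubb2 had -0.46, Tubb4 -0.43, Tubb5 -0.38, tubb1 -0.31, the actin-binding profilin PRO1 -0.20 and the alpha-tubulin TUBA -0.08. The 4 probe sets of Tubb5 ranged from -0.38 to 0.09.

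Redox enzymes were divided, 3 of 6 above 0 and 3 below, with a median of 0.12 and 0 past 2-fold in either direction. Among all 612 measured genes with a symbol, 18 (2.94%) passed 2-fold upward and 28 (4.58%) downward. The catalase CAT1, which breaks down hydrogen peroxide of photorespiration, had 3527 on PH and 6698 on PC, against 2981 on NH and 7182 on NC, a difference of 0.34. GSTZ1, a glutathione transferase, had 0.56, lgul, glyoxalase I, -0.38 and PCS1, phytochelatin synthase, -0.37 with NC below the floor. Prx1 had 0.45, and PER1 had -0.10 with PH below the floor. The probe sets of lgul disagreed: the other one, also above the floor on all 4 arrays, had 44.6 on PH and 586 on PC, against 19.4 on NH and 578 on NC, a difference of 1.18, and the mean over both was 0.40. No direction is therefore given for lgul. For CAT1, the other probe set had -0.04, and with the floor at the 75th percentile PCS1 had 0.40.

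Histones and translation genes had differences near 0. wcH2B-8, a histone H2B, had 55.9 on PH and 548 on PC, against 59.8 on NH and 511 on NC, with falls of 9.81-fold and 8.55-fold. Hmgb3, a high mobility group protein, fell 2.38-fold in P and 2.35-fold in N. The 5 measured histone and high mobility group genes ranged from -0.20 to 0.12 with a median of -0.02, and the 6 translation genes from -0.36 for eIF-4E-1, an initiation factor, to 0.39 for RPL9, a ribosomal protein, with a median of -0.03. Both medians changed sign with quantile normalization, to 0.04 and 0.01. No interval can be put on these differences, so that they lie near 0 does not show equal responses.

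Few stress genes could be followed. Of 7 named on the array, hsp16.9A, a small heat shock protein, COR410 and EM were below the floor on all arrays, and the other 4 ranged from -0.20 to 0.13. FKBP70, a peptidyl-prolyl isomerase, had 1577 on PH and 959 on PC, against 2109 on NH and 1119.7 on NC. LEA1, Rab15 and EMH2 stayed between 13.3 and 27.2 on all 4 arrays, near the floor.

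Among the storage and defence proteins known from the seed, 7 of 16 were measured, with 6 of 7 below 0, a median of -0.26, 0 past 2-fold upward and 2 downward. Over all 76 measured genes with a functional name, 4 (5.26%) passed 2-fold downward, these 2 among them. The counts of the seed list depend on the floor: with the floor at the 25th percentile 12 were measured, 7 below and 5 above 0, with a median of -0.06. With the floor at the 75th percentile 2 were measured. avnla, an avenin-like protein, had 72.9 on PH and 9.50 on PC, against 659 on NH and 11.2 on NC. It rose at least 5.94-fold in P and at least 53.7-fold in N. With both unheated arrays below the floor, the difference of -3.18 is that of PH and NH alone and is a bound in neither direction; the other probe set of avnla had -3.76. Serpin-Z2A, a protease inhibitor, had 15.1 on PH and 4.09 on PC, against 49.9 on NH and 5.57 on NC, and its -1.72 likewise rests on PH and NH. avnlb, a second avenin-like gene, was above the floor throughout, with 518 on PH and 394 on PC, against 571 on NH and 342 on NC, and a difference of -0.34.

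The grain endosperm markers Gli-8, LMW-GS, THI1.1, avnla and avnlb were above the floor in 5 of 5 genes on PH, 2 on PC, 5 on NH and 3 on NC. These 5 are among the 7 measured of the 16 seed genes, and the other 9 were below the floor on all arrays. The summed intensity of the 5 markers was 639 on PH, 441 on PC, 1287 on NH and 402 on NC, and 566, 432, 629 and 390.5 on the same arrays without avnla. Most of this second sum was avnlb, with 518, 394, 571 and 342. The gliadin Gli-8 and the glutenin LMW-GS did not exceed 24.9 on any array. The part of grain or other tissue in the avnla values was not tested.

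Of 3 defence genes, XIP-I, a xylanase inhibitor, rose 6.91-fold in P and 7.59-fold in N, with a difference of -0.14. PR5, a thaumatin-like protein, was below the floor on both heated arrays, and its 0.42 reflects PC and NC. TaGlu1a, a beta-glucosidase, passed 2-fold upward, with 20.4 on PH and 21.4 on PC, against 15.1 on NH and 53.8 on NC. Here the array apart from the others was NC, so the difference of 1.76 came mostly from the unheated pair, and it was 0.0056 with the floor at the 75th percentile. WZF1, a zinc finger protein outside the lists, passed 2-fold downward, with 15.4 on PH and 143 on PC, against 22.7 on NH and 86.2 on NC. Its -1.29 came more from the unheated than from the heated pair, and was -0.73 with that higher floor.

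Most genes with a symbol have a locus name alone. Of 612 measured genes with a symbol, 18 (2.94%) passed 2-fold upward and 28 (4.58%) downward, and their median was -0.07. The highest difference of a gene measured on each array was that of LOC543106, with 166 on PH and 1144 on PC, against 30.5 on NH and 1091 on NC. It fell 6.89-fold in P and 35.7-fold in N, a difference of 2.38, while its other measured probe set had 0.08. LOC543355 likewise fell in both, with 96.2 on PH and 2887 on PC, against 36.4 on NH and 2648 on NC, and had 1.28, or 2.32 from its other probe set. LOC780623 had 1112 on PH and 2578 on PC, against 515 on NH and 3110.4 on NC, with 1.38. These 3 genes repeat the pattern of FBP, a deeper loss on NH from similar unheated levels.

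In LOC543197 and LOC542875 the unheated pair contributed more. LOC543197 had 2249 on PH and 252 on PC, against 4584 on NH and 1404 on NC, so that it was lower in P at both temperatures and its 1.45 reflects a wider gap without heat. LOC542875 had 133 on PH and 19.0 on PC, against 113 on NH and 40.6 on NC, with 1.32. LOC780640 and LOC542855 had 1.12 and 1.05, both with heat changes under 2-fold in P and falls past 2-fold in N, and both differed more in the heated pair; over the 3 probe sets of LOC780640 the values ranged from 0.24 to 1.12. Of the genes below the floor on some array, LOC542773 and LOC100125715 had at least 1.503 and at least 1.32, with NH below the floor. LOC778394, LOC542774 and LOC780678, with 1.82, 1.14 and 1.02, were below it on both heated arrays, so their values are those of the unheated pair alone; the other probe set of LOC778394 had 0.49.

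Of the symbol-bearing genes measured on each array, LOC543090 had the lowest difference, with 34.7 on PH and 391 on PC, against 116 on NH and 159 on NC. It fell 11.3-fold in P and changed 1.37-fold in N, a difference of -3.04, and PC was its highest array and PH its lowest. LOC100037560 had 116 on PH and 858 on PC, against 269.6 on NH and 489 on NC, with -2.03; its 3 probe sets ranged from -2.03 to -0.62. LOC543422 had 97.4 on PH and 465 on PC, against 290.3 on NH and 348 on NC, with -1.996; its probe set without the suffix for several transcripts had -0.43. In all 3, the fall in P passed 2-fold and that in N did not.

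A further group rose less in P. LOC606308 had 894 on PH and 134 on PC, against 1906 on NH and 76.5 on NC, with rises of 6.66-fold and 24.9-fold and a difference of -1.90, or -1.82 from its other probe set. LOC606330 had 1815 on PH and 1781 on PC, against 2672 on NH and 833 on NC. It rose 3.21-fold in N while PH and PC lay together, and its unheated pair differed more than its heated pair. LOC543416, LOC542857 and LOC542793, with -1.53, -1.36 and -1.24, also passed 2-fold upward with heat in N alone. LOC778392, with -1.56, fell in both, 10.3-fold in P and 3.50-fold in N, but its 3 probe sets disagreed: they ranged from -1.56 to 0.72, and their mean was -0.61. Without the types for several transcripts it had -0.99. LOC100049055 and LOC542781 had -1.31 and -1.32, at intensities of at most 64.3.

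Of the downward genes with an array below the floor, LOC542826 had 7.71 on PH and 119 on PC, against 139 on NH and 169 on NC, so that its difference was at most -3.001. LOC100125738 had 132 on PH and 10.1 on PC, against 682 on NH and 15.6 on NC; with PC below the floor, its -2.02 may overstate the size. LOC780636, with -2.81, rests on PH and NH alone, and its probe set above the floor on all 4 arrays had -0.37. LOC100125730, with -1.13, rests on PC and NC alone, and its other probe set had 0.51.

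Among all probe sets above the floor on all 4 arrays, with or without a symbol, the highest difference was that of Ta.447.2.S1_a_at, which has no symbol. It had 299 on PH and 3681 on PC, against 23.6 on NH and 3574 on NC, a difference of 3.62. A second probe set of this transcript cluster, Ta.447.1.S1_x_at, had 2.60, and the third and dimmest, Ta.447.3.S1_x_at, had -0.06. The 3 probe sets of cluster Ta.27761 had 2.30, 2.31 and 2.47; the brightest had 2049 on PH and 7307 on PC, against 452 on NH and 7969 on NC. Ta.5861.1.S1_x_at and TaAffx.3238.1.S1_at, with 2.85 and 2.82, were far dimmer, with no value above 140.1. LOC543106, which has a symbol, was the sixth highest.

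The lowest value within the same limit was that of Ta.2657.1.S1_s_at, followed by LOC543090. Ta.2657.1.S1_s_at had 29.0 on PH and 1214 on PC, against 338 on NH and 986 on NC, a difference of -3.84, and Ta.2657.1.S1_x_at of the same cluster had -2.84. Ta.29463.1.S1_x_at had 37.7 on PH and 1089 on PC, against 219 on NH and 794 on NC, with -2.995. Ta.30769.1.S1_at and TaAffx.92223.1.A1_at had -2.84 and -2.79. For Ta.2657, Ta.29463 and Ta.30769 the transcript fell past 2-fold in both backgrounds and further in P, the reverse of the pattern of FBP.

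Over the whole array the difference was balanced between the directions. Its median was -0.0048, 77.4% of the 33561 probe sets lay within 0.5 of 0 on the log2 scale, and the quartiles were -0.26 and 0.24. At 2-fold, 765 probe sets (2.28%) were higher and 761 (2.27%) lower. At 1.5-fold the counts were 2854 higher and 2831 lower, at 4-fold 41 and 63, and at 8-fold 5 and 9. The heat changes themselves were wider: 3145 probe sets (9.37%) rose and 3241 (9.66%) fell by 2-fold or more in PH against PC, and 3615 (10.8%) rose and 3440 (10.2%) fell in NH against NC. The SD across probe sets was 0.98 for the heat change in P and 1.07 in N, against 0.48 for the difference between them. The median size without regard to sign was 0.39 and 0.43 for these heat changes, against 0.25 for the difference.

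What the differing probe sets did with heat varied. Of the 765 higher ones, 250 fell past 2-fold in both backgrounds, 171 fell in N alone, 156 rose in P alone, 14 rose in both, 3 moved in opposite directions and 171 passed 2-fold in neither. Of the 761 lower ones, 274 rose in N alone, 146 rose in both, 123 fell in P alone, 98 fell in both, 2 moved in opposite directions and 118 passed 2-fold in neither. A fall in N, with or without one in P, was thus the most frequent course among the higher probe sets, and a rise in N among the lower ones.

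Direction varied with signal level. The 27473 probe sets above the floor on all 4 arrays were ranked by mean log2 intensity and divided into 10 groups of equal size. In the brightest group, with a geometric mean intensity of 520 or more, 106 probe sets (3.86%) passed 2-fold upward and 35 (1.27%) downward. Of these 106, 91 had a mean heat change of 2-fold or more downward, against 447 (16.3%) of all 2748 probe sets in the group. The median heat change of the 106 was -1.44 in P and -2.74 in N. Of the 35 lower ones, 8 had a mean heat change of 2-fold or more downward, 8 upward and 19 neither. In the 8 middle groups, 2.04% to 2.51% were higher and 1.27% to 3.06% lower; in the dimmest group the shares were 0.69% and 0.58%, where the floor leaves little room for a fall. The median difference stayed between -0.07 and 0.04 in every group, so that the excess in the brightest group lay in its tail. That excess was 98 against 39 with median scaling and 128 against 33 with quantile normalization.

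**Figure D3:**
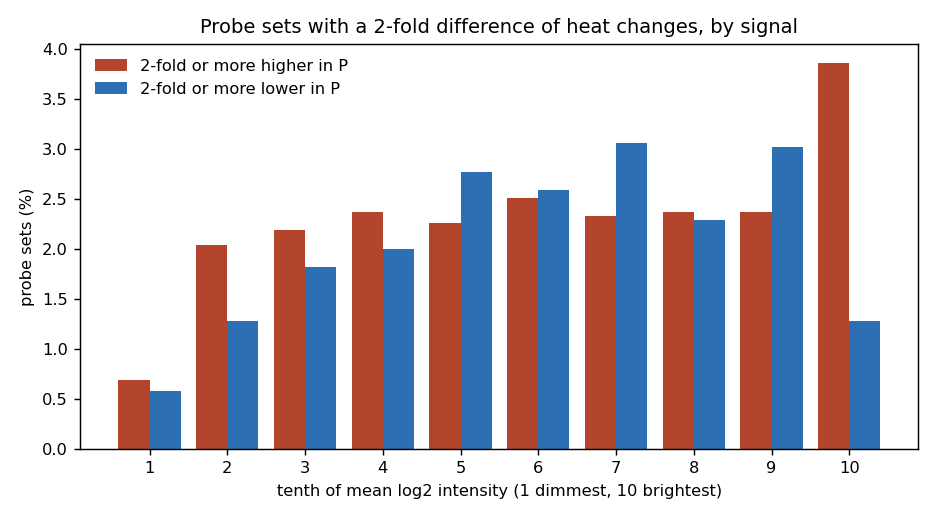
Bars give the percentage of probe sets whose heat change differed by 2-fold or more between the backgrounds, higher in P (red) or lower in P (blue), in 10 groups of mean log2 intensity (1 dimmest, 10 brightest; 2747 or 2748 probe sets each). In the brightest group 3.86% were higher and 1.27% lower.

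The difference also followed the size of the heat change, taken as the mean of both backgrounds. Among 244 probe sets that fell 8-fold or more, the median difference was 0.41, 65.2% lay above 0, and 30.3% were 2-fold higher against 8.61% lower. Among 543 that fell 4- to 8-fold the median was 0.42, and among 1818 that fell 2- to 4-fold it was 0.17. On the rising side it was -0.13 for 2143 probe sets that rose 2- to 4-fold, -0.27 for 407 that rose 4- to 8-fold and -0.37 for 221 that rose 8-fold or more, of which 77.8% lay below 0. Strongly responding probe sets thus tended to change less in P in both directions. The order of signs was the same with median scaling and with quantile normalization, where the medians for the 8-fold falls were 0.37 and 0.40 and those for the 8-fold rises -0.41 and -0.32.

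**Figure D4:**
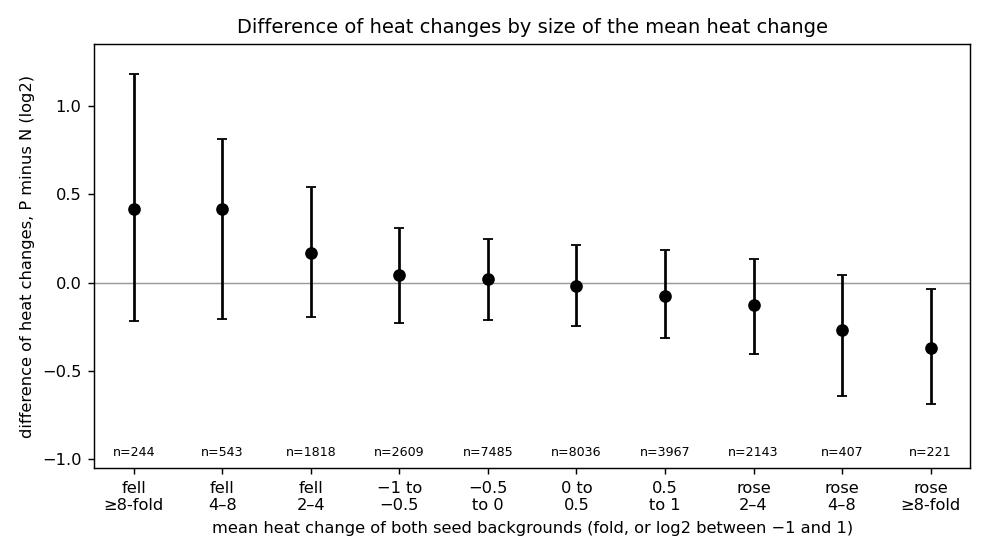
Points give the median difference of the heat changes (P minus N, log2, vertical axis) of probe sets above the floor on all 4 arrays, grouped by their mean heat change over both backgrounds (horizontal axis, falls at the left and rises at the right); bars run from the lower to the upper quartile over probe sets and are no replicate error. The medians go from 0.41 and 0.42 at the left to -0.37 at the right.

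Since the difference equals the PH and NH contrast minus the PC and NC contrast, which share no array, it can be divided between heated and unheated leaves. The 2-fold line was passed in PH against NH by 715 probe sets upward (2.13%) and 472 downward (1.41%), and in PC against NC by 109 upward (0.325%) and 134 downward (0.399%). Of the 765 higher probe sets, 471 passed 2-fold in the heated pair alone, 73 in the unheated pair alone, 6 in both and 215 in neither. Of the 761 lower ones, 353 did so in the heated pair alone, 63 in the unheated pair alone, 9 in both and 336 in neither. The heated pair made the larger contribution at 640 of the higher (83.7%) and 572 of the lower probe sets (75.2%). FBP and Ta.2657.1.S1_s_at are examples of the heated pair, and TaGlu1a and LOC543197 of the unheated pair.

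**Figure D5:**
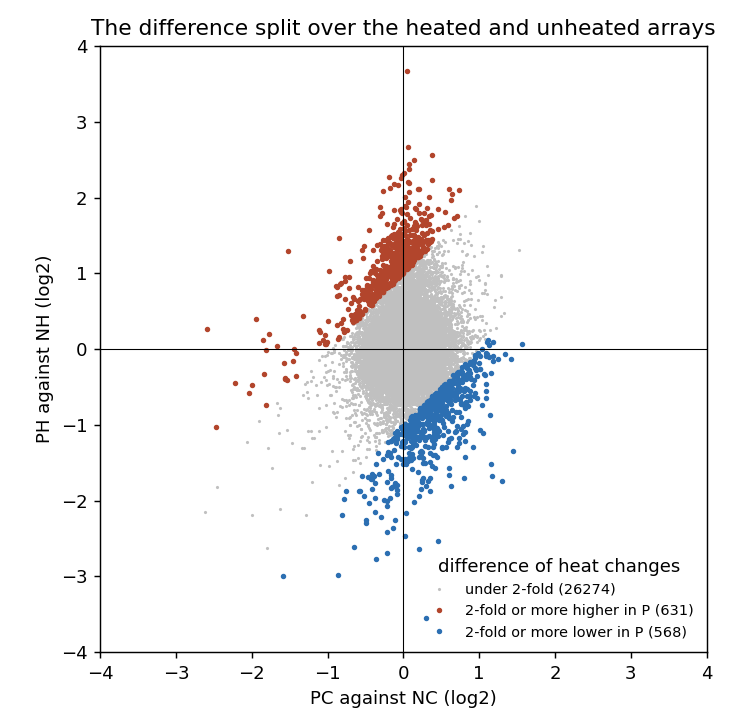
Each point is a probe set above the floor on all 4 arrays, placed by its PC against NC contrast (log2, horizontal axis) and its PH against NH contrast (log2, vertical axis); red marks the 631 with a difference of the heat changes 2-fold or more higher in P, blue the 568 lower and grey the other 26274. Most coloured points spread along the vertical axis, that is, over the heated pair.

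Probe sets of 1 transcript cluster share arrays and target and are no replicates, but they show how often another probe set had the same sign. For a probe set past 2-fold upward, another probe set of its cluster had the same sign in 79.0% of 839 pairings. For one past 2-fold downward this was so in 85.7% of 874, against 65.7% of 35039 pairings over all measured probe sets. Without the types that can match several transcripts, and above the floor on all arrays, the shares were 64.5% of 172, 66.0% of 106 and 60.6% of 5288. With these types left out, the shares of the differing probe sets lay closer to the share over all.

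Control probe sets moved with the same arrays. The 36 poly-A controls, RNAs added to the sample before labelling, had a median difference of -1.20 (from -1.84 to -0.82), with 28 of 36 past 2-fold downward, from a median heat change of -0.30 in P and 0.90 in N. The 27 hybridization controls had a median of -0.25. Of the wheat control genes, 18S ribosomal RNA had 0.02, the 3 ubiquitin probe sets -0.52 to -0.08, and 2 of 3 probe sets for glucose-6-phosphate dehydrogenase -1.01 and -1.0001. The sign of the poly-A difference is opposite to that of FBP, PRK, GAPN and Pgk-1. It is equal to that of the lower genes such as SAHH, COMT1, the tubulins and 1-FEH. The measured poly-A controls were brightest on NH, where FBP, PRK, GAPN and Pgk-1 were dimmest, so these signs do not tell whether RNA input had a part. The ratio of 3′ to 5′ ubiquitin signal was 0.992 on PH and 0.750 on PC, against 0.929 on NH and 0.645 on NC, so it was higher with heat in both backgrounds. The part of RNA input or quality in the differences was not tested.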

How the data were processed

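Total RNA (6 µg per sample) from flag leaves was made into biotinylated cRNA and hybridized to 1 Affymetrix wheat array per group, per the labels' protocols; the labels also name Cy3, and which label holds is not settled. The deposited values are linear intensity per probe set; the tool is MAS5, per the submitters' processing notes. Its version, any scaling between arrays and any detection call are not given in the sources used. The authors' values were used without further scaling; array medians lay between 12.1 and 12.7, and 30265 to 30938 probe sets per array exceeded the floor.

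Of 61290 probe sets, 175 controls were left out (111 Affymetrix and 64 reporter). Values below the floor, the 50th percentile of all other values (12.3), were raised to it before log2; a fold with a side below it is written "at least". The probe set with the highest mean log2 intensity stands for its gene. Probe sets with the suffixes s, x or a can match several transcripts. Symbols came from the platform annotation (1273 probe sets with 1 symbol, 59842 with none) and 770 of 771 matched the gene table of IWGSC CS RefSeq v2.1, from which only names were taken; 102 have a functional name. Named genes are the 12 highest and 12 lowest above the floor on all arrays, up to 6 and 6 below it on some array, all functional names past 2-fold, the 6 nearest 0 among those past 2-fold in both heat changes, 6 probe sets each way, and all measured members of 13 lists. Some list members are given only through the range or median of their list. The members and lists were chosen with earlier results of these data known. Promoter motifs were not analysed here, and no sequences are printed.

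With 1 array per group no test was made; counts, medians and quartiles describe these arrays, and their number limits the precision. As alternatives, arrays were scaled to a common median or quantile normalized, the floor was set at the 25th or the 75th percentile or replaced by a pseudocount of its size, the threshold was 3-fold, probe sets were limited to those above the floor on all arrays or to those without several-transcript suffixes, and genes were given the mean of their probe sets. The computation was tested on simulated data with placed changes. Computations used Python 3.11.15 with pandas 2.3.3, numpy 2.4.6, scipy 1.17.1 and matplotlib 3.10.9.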

Additional observations from a re-analysis of the deposited data

Results flagged for a closer look

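At 5 probe sets without a gene symbol, the heat change passed 2-fold upward in 1 seed background and downward in the other. These differences were not tested, since each group has 1 array. Ta.11519.1.A1_at had 129.9 on PH and 7.92 on PC, against 11.0 on NH and 449 on NC. With PC and NH below the floor its difference was at least 8.60. Ta.11519.1.A1_x_at of the same cluster, with NH below the floor, had at least 8.36. TaAffx.73741.1.S1_at had 54.4 on PH and 19.7 on PC, against 8.87 on NH and 36.0 on NC, a difference of at least 3.02. Ta.4829.1.S1_at had 12.9 on PH and 81.4 on PC, against 41.6 on NH and 11.0 on NC, a difference of at most -4.42. Ta.23072.1.S1_at, above the floor on all 4 arrays, had 66.4 on PH and 155 on PC, against 232 on NH and 100.3 on NC, a difference of -2.43. The poly-A controls, which the gene comparisons leave out, had a median difference of -1.20, against -0.0048 over all measured probe sets.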

How the results depend on the processing

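No paired analysis was possible because each group has 1 array. The counts of 765 higher and 761 lower probe sets were 139 and 166 at 3-fold, 339 and 399 with the floor at the 75th percentile, 419 and 459 with a pseudocount in place of the floor, and 545 and 472 without probe sets for several transcripts, where 23785 of 33561 were measured. They stayed within 1.5 times under the lower floor (1106 and 978), median scaling (675 and 856), quantile normalization (780 and 751) and above the floor on all arrays (631 and 568). The share of heat-lowered probe sets that fell less in P, 59.2%, was 63.1% above the floor on all arrays and 56.8% with median scaling. The share of heat-raised probe sets that rose less in P, 65.8%, was 72.5% at 3-fold, 67.5% with the higher floor, 69.1% with median scaling, 69.3% with a pseudocount, 63.4% with quantile normalization and 63.4% without probe sets for several transcripts. Alternatives for the next 2 shares were chosen after seeing the data. The heated pair was the larger contributor at 79.4% of all probe sets past 2-fold, 83.3% at 3-fold, 82.3% above the floor on all arrays, and 73.9% and 81.8% with the lower and the higher floor. The share of same-sign pairings, 82.4%, was 88.4% at 3-fold, 77.2% and 91.1% with the lower and the higher floor, 84.6% with a pseudocount and 69.5% without probe sets for several transcripts. Of 628 values of 85 named genes under alternatives, 588 kept their sign and their side of the 2-fold line, and 10, of 9 genes under 2-fold, changed sign below it. A further 27 crossed the line, and 3 values of genes past 2-fold changed sign: LOC100125730 (-1.13) had 0.41 with the lower floor and 0.27 with a pseudocount, and LOC542781 (-1.32) had 0.015 with the higher floor. Of the 36 named genes past 2-fold, 19 stayed so on the same side under every alternative that gave a value. The cause of these changes was not tested. With 1 array per group, a difference between plants, chambers or arrays and one between seed backgrounds cannot be told apart, and below the floor a fall cannot be seen.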
